A study of Nasonia vitripennis with 6 samples.

Results

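The genes described here are those whose annotation in the deposited *Nasonia vitripennis* table holds the name of a translation initiation, elongation or release factor. They were picked by keywords in the annotation text, leaving out any entry that mentions transcription or a helicase, and no expression value was used. The keywords matched 68 of the 36329 gene models in the table, and 64 of the 68 had at least 1 read. Of the 68, 56 are counted as translation factors proper, 6 are proteins that act on a factor, such as kinases and binding proteins, and 6 are elongation factors of RNA polymerase II, which share the words alone. The 56 were grouped by name and include eIF4A-III and EF1 epsilon-1, which are known from other complexes. All 68 are called factors in the counts below. The expression values come from poly-A selected, strand-specific libraries of the ovary and the venom gland (VG). Both tissues were dissected from mated and host exposed females of the strain Lab II, aged 1 to 3 days, with no other treatment. Each tissue had 3 replicates, and each replicate pooled 40 to 50 wasps, so a value describes a pool and not a single female. The deposited values are the authors' mean over the 3 libraries of a tissue of the normalised read count, which is the read count divided by the DESeq size factor of its library. These means were not divided by gene length and carry no error, so levels were compared between tissues for 1 gene, and not between genes.

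Translation factors are proteins that bind the ribosome for a single stage of protein synthesis and then leave it. Initiation factors (eIF) bring the initiator tRNA and the capped end of the mRNA to the small ribosomal subunit, elongation factors (EF) deliver aminoacyl-tRNAs and move the ribosome along the mRNA, and release factors (eRF) free the finished protein at a stop codon. Mitochondria hold ribosomes of their own, which use factors of the bacterial type (IF, EF-Tu, EF-Ts, EF-G, RF) encoded in the nucleus. The VG is a secretory gland that makes venom proteins, and the ovary loads eggs with ribosomes and maternal mRNA.

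The labels were checked against genes known from each tissue. The 9 ovary marker genes, among them the germ line genes oskar, nanos and vasa, summed to 82290 normalised counts in the ovary against 868 in the VG, with 0 of 9 at 0 in the ovary against 1 of 9 at 0 in the VG. Venom protein encoding genes, of which 79 were taken from the study, made up 0.195% of the summed ovary means and 53.1% of the summed VG means. The 18 muscle markers summed to 9010 in the ovary against 9356 in the VG, with 2 and 3 of them at 0. Single muscle markers differed more than the sums. Of the 16 with a read, 3 were at least 2-fold higher in the VG and 1 lower. A Troponin C model had 21.0 in the ovary against 1047 in the VG, and a Titin model 268 and 26.9. The 17 fat body markers (vitellogenin, hexamerin and apolipophorin genes) summed to 9202 in the ovary against 116499 in the VG, 12.7 times as much, and 1 and 3 of them were at 0. A single vitellogenin gene model gave 100996 of the VG sum. Fat body markers went both ways, with 9 of the 16 with a read at least 2-fold higher in the VG and 4 lower. Over all genes with a read these shares were 35.9% and 21.3%. Among the 4 was Vitellogenin-5, at 3862 in the ovary against 238 in the VG. The part of fat body RNA in the results below was not tested.

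In log2 of VG mean over ovary mean, the 64 factors with a read had a median of 0.14 and ranged from −4.93 to 2.69. Of these, 6 (9.38%) were at least 2-fold higher in the VG and 10 (15.6%) at least 2-fold lower, and 48 lay within 2-fold. Over all 19854 genes with a read the shares were 35.9% higher and 21.3% lower. Of the 52 factors proper with a read, 4 were at least 2-fold higher and 7 lower, with a median of 0.18. Among the 60 factors whose means reached 100 in both tissues, 5 (8.33%) were at least 2-fold higher and 9 (15.0%) lower, with a median of 0.16. The 5788 genes over the same minimum gave 20.1% higher and 28.5% lower, with a median of −0.24. The share of factors past 2-fold was below that of the genes at large in both directions. This is a description, since the tissue means allow no test over replicates except for the 3 genes whose reads per library were recovered in both tissues. In a bulk sample, fewer cells of a type and less RNA per cell cannot be told apart, and this holds for each difference given here.

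The direction depended on how the libraries were put on a common scale. On the DESeq scale 37 of the 64 factors had the higher mean in the VG and 27 in the ovary. Over all 19854 genes with a read, 10003 log2 ratios were above 0 and 6799 below. Of the 8532 genes whose means reached 10 in both tissues, 3676 were higher in the VG and 4856 lower. Relative to the median of these 8532 genes, −0.27, 40 of the 64 factors lay above, beside 13800 of the 19854 genes. Centred there, 12 factors were at least 2-fold higher and 9 lower, counts for which no share over all genes was taken. Dividing each tissue by its summed means without the venom protein encoding genes lowered every log2 value by 1.28, which left 3 factors higher in the VG, with 1 at least 2-fold higher and 37 lower. Dividing by the sums over all genes lowered every value by 2.37, which left 1 factor higher in the VG and 61 at least 2-fold lower. Of the 19854 genes with a read, 13330 were lower in the VG with totals without venom protein encoding genes. With totals over all genes, 3803 of the 19854 were higher. The factor left 2-fold higher without the venom genes was also the factor left higher with all genes. It was a second EF1-alpha model, with means of 3.12 in the ovary against 20.1 in the VG. A difference between 2 groups of factors is the same on all of these scales. The factors took 4.30% of the summed ovary means, 1.18% of the VG sum, and 2.51% of the VG sum without the venom protein encoding genes.

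**Figure D1:**
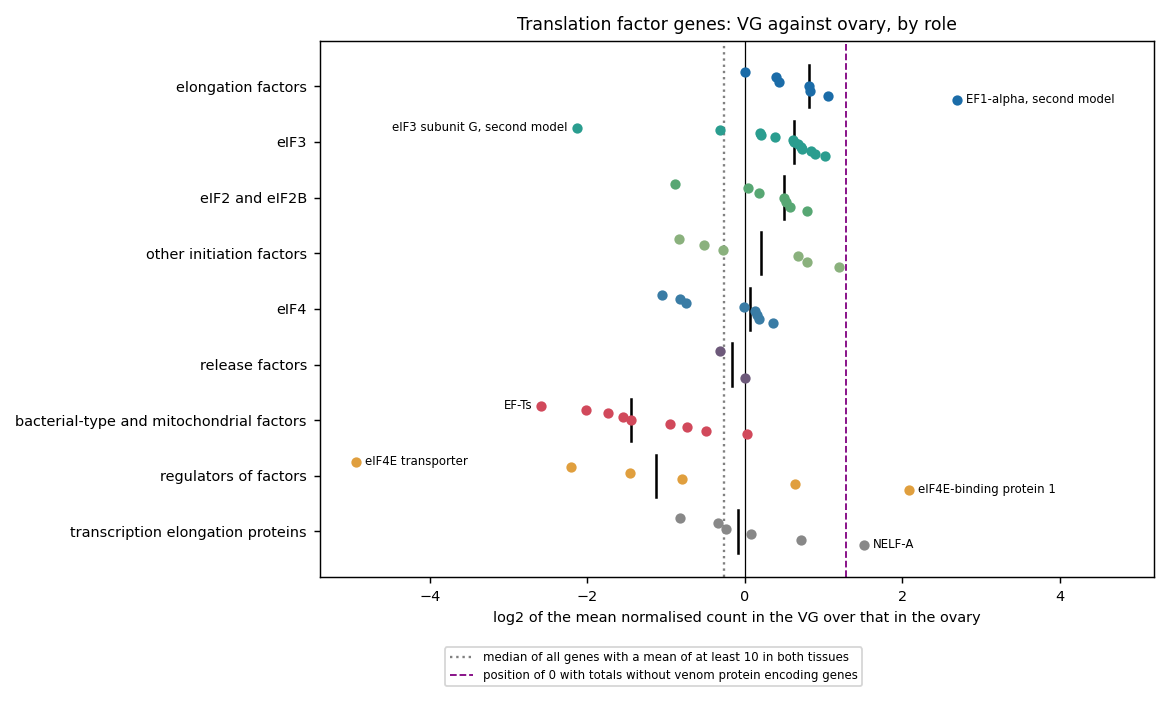
Log2 ratio of VG mean to ovary mean for the 64 factor genes with a read, on the DESeq scale, with 1 point per gene, 1 line of points per role and a black bar at the median of each role. The dotted line marks the median of the genes whose means reached 10 in both tissues (−0.27). The dashed line marks where 0 would lie with totals without venom protein encoding genes (1.28), a scale on which only 3 factors are higher in the VG. The bacterial-type and mitochondrial factors lie to the left of most other factors.

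Among the elongation factors of the cytosol, EF1-alpha (Nasvi2EG006904), the GTPase that carries aminoacyl-tRNA to the ribosome, had a mean of 130150 in the ovary against 229849 in the VG. By reads, without division by gene length, its mean ranked 1 (ovary) and 40 (VG) among all genes, and it took 1.22% of the ovary sum, 0.417% of the VG sum and 0.889% of the VG sum without venom protein encoding genes. EF2 (Nasvi2EG010431), which moves the ribosome to the next codon, had 74500 in the ovary against 132379 in the VG, ranks 4 and 59 by reads. Both genes had nearly the same log2 ratio, 0.82 and 0.83 on the DESeq scale, and both were lower in the VG once totals were used, with or without the venom protein encoding genes.

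EF1-beta', EF1-gamma and EF1-delta belong to the complex that reloads EF1-alpha with GTP. EF1-beta' (Nasvi2EG027695) had means of 6243 in the ovary against 12974 in the VG, a log2 ratio of 1.06. EF1-gamma (Nasvi2EG014035) had 20254 and 27371 (0.43), and EF1-delta (Nasvi2EG019636) had 4529 and 5973 (0.40). With EF1-alpha, these 4 genes spanned 0.66 on the log2 scale, and all 4 were lower in the VG with either kind of totals. EF1 epsilon-1 (Nasvi2EG003033), a protein known in mammals as a part of the aminoacyl-tRNA synthetase complex, had 712 in the ovary against 711 in the VG. Its 3 VG libraries were at 566, 1044 and 523, on both sides of the ovary mean.

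Values per library could be read back for low means, because each mean is a sum of whole reads times 1 fixed step per library. The letters a, b and c name the libraries here in the order of these steps. The deposited columns carry no replicate numbers, so the letters were not tied to the replicate labels. The paper reports lower mapping for a VG replicate, and predicts that its ribosomal RNA was removed less well. VG library c had the smallest VG size factor, 0.287 against 0.525 and 0.450. Whether library c is that replicate was not tested. Values per library were found for the VG in 26 factors with VG means from 20.1 to 978, and for both tissues in 3 factors. A second EF1-alpha model (Nasvi2EG012957) was 1 of these 3, with 8, 9 and 6 reads in the ovary libraries and 10, 17 and 1 in the VG libraries. Its means of 3.12 and 20.1 gave the highest log2 ratio of all factors, 2.69, but VG library c, at 3.49 normalised counts, held 1 read, and without VG library b the ratio was 1.86. An exact two-sided permutation test over the 3 ovary and 3 VG libraries gave p = 0.2, where the smallest p that 3 against 3 allows is 0.1. A second EF1-gamma model (Nasvi2EG003231) had 0 reads in both tissues, as had one eIF3 subunit L model (Nasvi2EG018301) and 2 eIF4G models (Nasvi2EG024657 and Nasvi2EG026707). A count of 0 allows a mean of up to 0.435 in the ovary against 3.49 in the VG, for counting error only. For genes with more than 1 model of a name, the counting could have split or lost shared reads.

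**Figure D2:**
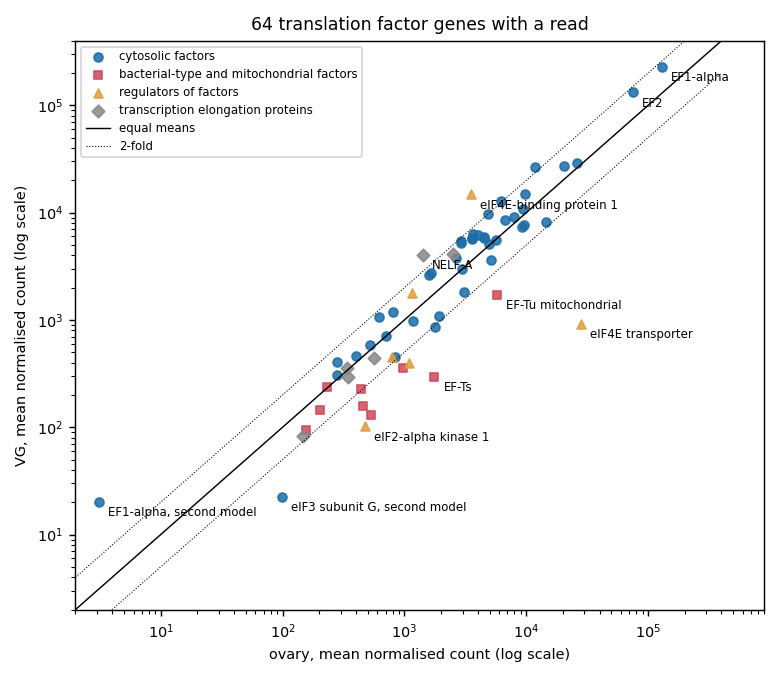
Mean normalised count in the VG against that in the ovary, both on log axes and on the DESeq scale, for the 64 factor genes with a read, by class. The solid line marks equal means and the dotted lines 2-fold, and totals without venom protein encoding genes would move every point down by 1.28 in log2. The eIF4E transporter lies farthest below the line, at 28283 in the ovary against 925 in the VG.

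The initiation factor eIF3 is the largest of these complexes, a scaffold on the small ribosomal subunit. Apart from a second model of subunit G, its 12 models with a read had log2 ratios from −0.31 to 1.02 with a median of 0.65 on the DESeq scale, and all 12 were lower in the VG with totals. Subunit I (Nasvi2EG014962) had the highest ratio, with means of 4817 in the ovary against 9750 in the VG. Subunit B (Nasvi2EG011483) had 9795 and 15013 (0.62). Subunits F, K, J, E and H had ratios of 0.89, 0.72, 0.72, 0.67 and 0.62, and subunits M, A and C 0.38, 0.20 and 0.19. Subunit D (Nasvi2EG000312), a subunit known in mammals to bind the cap, was the only one of these 12 with the lower DESeq-scale mean in the VG, at 9199 in the ovary against 7419 in the VG. The ratios of these 12 models spanned 1.33 on the log2 scale, and 11 of the 12 lay within 2-fold. No library values were recovered for them, so whether the subunits differ in ratio was not tested.

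Subunit G had 2 models with reads, and they went opposite ways on the DESeq scale. The main model (Nasvi2EG000311) had means of 2888 in the ovary against 5175 in the VG (0.84), which became a lower VG level with totals. The second model (Nasvi2EG000315) had 106, 88.7 and 100 normalised counts in the ovary libraries, from 275, 219 and 231 reads, and 21.0, 28.9 and 17.4 in the VG libraries, from 11, 13 and 5 reads. Its tissues did not overlap, and its log2 ratio was −2.14 (exact two-sided permutation test, p = 0.1, the smallest that 3 against 3 allows).

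Initiation factor eIF2 brings the initiator tRNA, and eIF2B recharges eIF2 with GTP. Subunit 1 of eIF2 (Nasvi2EG012739), the subunit that stress kinases phosphorylate, had means of 2668 in the ovary against 3755 in the VG (0.49). Subunit 2 (Nasvi2EG014084) had 4938 and 5058 (0.03). Of the 5 eIF2B subunits, beta (0.79), delta (0.58), alpha (0.52) and gamma (0.17) had the higher DESeq-scale mean in the VG and became lower with totals, whereas epsilon, the catalytic subunit, had the lower mean in the VG on every scale. The VG libraries of eIF2B epsilon (Nasvi2EG001148) were at 425, 511 and 411, all below the ovary mean of 832 (−0.89). Those of alpha (Nasvi2EG009190) were at 334, 524 and 352, all above the ovary mean of 280. Alpha and epsilon thus differed in side in every VG library on the DESeq scale, and with totals both were lower in the VG.

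The eIF4 group recruits the mRNA. The helicase eIF4A (Nasvi2EG018524) had means of 25898 in the ovary against 28763 in the VG (0.15), its helper eIF4B (Nasvi2EG009055) had 5595 and 5563 (−0.01), and the scaffold eIF4G (Nasvi2EG037316) had 6698 and 8549 (0.35). All 3 lay within 2-fold on the DESeq scale, and were lower in the VG with totals. By contrast, 3 relatives of these proteins had the lower VG mean on every scale. They were eIF4G2 (Nasvi2EG010687), a relative of eIF4G that in mammals lacks the cap-binding protein's site, at 14441 in the ovary against 8155 in the VG (−0.82), eIF4H (Nasvi2EG021006) at 3083 and 1840 (−0.74), and eIF4A-III (Nasvi2EG003545). The latter is a helicase of the exon junction complex rather than of initiation, and its VG libraries were at 867, 910 and 812 against an ovary mean of 1787 (−1.05).

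The cap-binding protein eIF4E itself had close means on the DESeq scale, and its VG libraries disagreed. Those of Nasvi2EG008197b were at 225, 517 and 178 around an ovary mean of 281, and its log2 ratio of 0.13 became −0.48 without library b. The eIF4E type 3 fragment (Nasvi2EG008132) had 562, 275 and 533 around an ovary mean of 404, with library b lowest. On this scale the VG libraries of both genes lay on both sides of the ovary mean, whereas with totals without venom protein encoding genes all 3 lay below it, with log2 ratios of −1.15 and −1.10.

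Among the other initiation factors, eIF5A (Nasvi2EG006161), which helps the ribosome through difficult peptide bonds and also acts in elongation, had means of 11721 in the ovary against 26857 in the VG. Its log2 ratio of 1.20 on the DESeq scale was −0.08 with totals without venom protein encoding genes. The GTPase activator eIF5 (Nasvi2EG012371) had 3651 and 6291 (0.79) and eIF1A (Nasvi2EG010049), which helps in scanning, had 3573 and 5720 (0.68), and both were lower in the VG with totals. The subunit-joining GTPase eIF5B (Nasvi2EG012245) had 5150 in the ovary against 3586 in the VG (−0.52), and eIF2A (Nasvi2EG003609) had 1927 and 1079 (−0.84). For eIF6 (Nasvi2EG002132), which keeps free large subunits apart, the VG libraries were at 854, 1299 and 781 around an ovary mean of 1188.

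Termination needs eRF1, which reads the stop codon, and the GTPase eRF3. The mean of eRF1 (Nasvi2EG008185) was 2991 in the ovary against 3000.4 in the VG (0.00), and that of eRF3 (Nasvi2EG007735) was 9654 and 7731 (−0.32). Both were within 2-fold on the DESeq scale and lower in the VG with totals.

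The 9 bacterial-type factors, of which 2 carry the word mitochondrial in the annotation, had the lowest median of the factor groups. It was −1.44, against 0.38 for the 43 cytosolic factors with a read. The difference between these medians, 1.82, holds on every scale. Of the 43 cytosolic factors 42 lay above the median of the bacterial-type factors, and 0 of the 9 bacterial-type factors lay above the cytosolic median. Most genes at large lay above −1.44 too, since the lower quartile of those whose means reached 10 in both tissues was −1.34. The cytosolic median of 0.38 lay between the median (−0.27) and the upper quartile (0.94) of the same genes. On the DESeq scale 8 of the 9 had the lower VG mean, 5 of them by at least 2-fold, where the share 2-fold lower was 21.3% of all genes with a read and 28.5% of those whose means reached 100 in both tissues. With totals without venom protein encoding genes all 9 were lower, as were 13330 of the 19854 genes with a read.

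The elongation factors of this type were EF-Tu, EF-Ts and EF-G, the counterparts of EF1-alpha, its exchange factor and EF2. EF-Ts (Nasvi2EG003278) had an ovary mean of 1762 and 244, 360 and 279 in the VG libraries, a 5.99-fold difference (−2.58). EF-Tu annotated as mitochondrial (Nasvi2EG009304) had means of 5729 and 1716 (−1.74). The other EF-Tu (Nasvi2EG009613) had 227, 271 and 188 in the VG libraries against an ovary mean of 441. Its log2 ratio of −0.95 passed 2-fold only without VG library b (−1.09). For EF-G (Nasvi2EG022249) the VG libraries were at 309, 380 and 376 and the ovary mean was 966 (−1.44). For the mitochondrial EF-G 2 (Nasvi2EG012312), which in mammals acts in ribosome recycling, they were at 70.5, 95.5 and 115 against 156 (−0.73). In all 4 of these genes with library values, each VG library lay below the ovary mean.

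Both initiation factors of this type showed the same order. IF-2 (Nasvi2EG011639), which places the initiator tRNA, had 118, 158 and 119 in the VG libraries and an ovary mean of 533 (−2.02). IF-3 (Nasvi2EG009174), which keeps the subunits apart, had 128, 207 and 136 and an ovary mean of 457 (−1.55). The release factors of this type differed less. The C12orf65 factor (Nasvi2EG012103), a rescue factor for stalled mitochondrial ribosomes in humans, had 158, 164 and 112 against 203 (−0.49). Peptide chain release factor 1 (Nasvi2EG006029) had 275, 129 and 307 around an ovary mean of 233 (0.02), so its VG libraries lay on both sides of the ovary mean. All 3 VG libraries lay below the ovary mean in 7 of the 8 bacterial-type genes with library values. They lay at least 2-fold below in 4 of the 8, near the 41.0% of the 4862 genes with VG reads per library, a VG mean of at least 10 and an ovary mean of at least 100. For the count of 7 of 8 no share over all genes was taken. Library values were sought only for VG means up to 1000, which favours genes low in the VG.

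**Figure D3:**
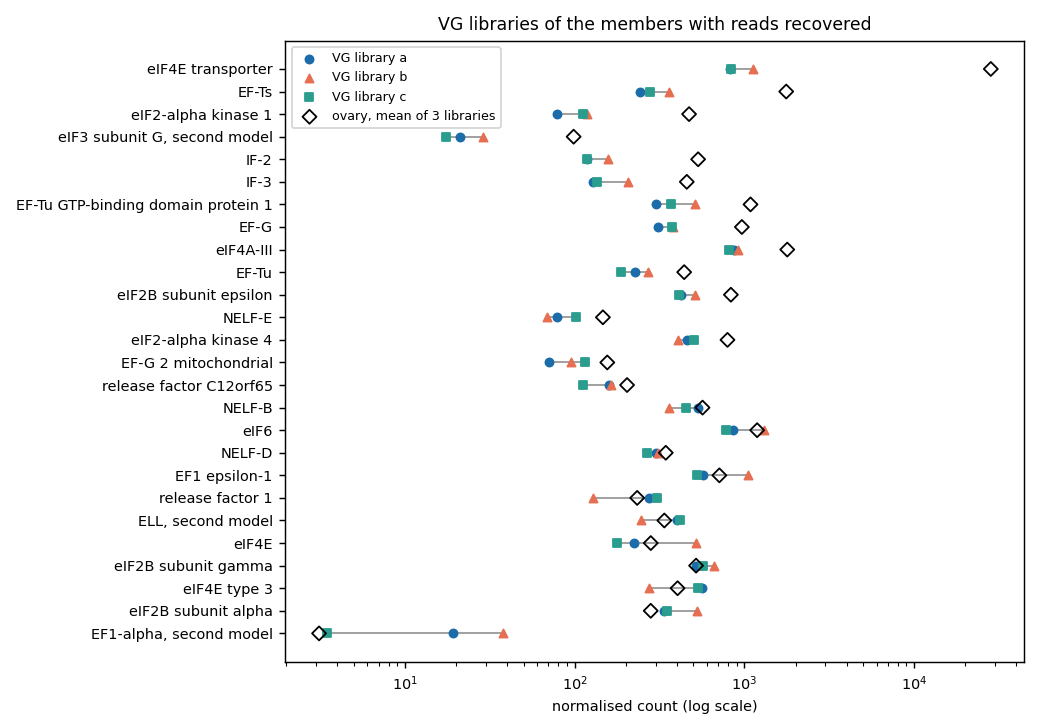
Normalised count on a log axis in VG libraries a, b and c (filled points) and the ovary mean of 3 libraries (open diamonds), on the DESeq scale, for the 26 factor genes with VG reads recovered, ordered by log2 ratio. In 17 genes all 3 VG libraries lie below the ovary mean, in 3 above it (of which eIF2B gamma and alpha lie below it with totals) and in 6 on both sides. No share over all genes was taken for these counts, and only genes with VG means up to 1000 could enter.

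Proteins that act on the factors held the widest differences. The eIF4E transporter (Nasvi2EG014441) had the lowest log2 ratio of all factors, −4.93, a 30.6-fold difference. It binds eIF4E, and its Drosophila counterpart Cup represses maternal mRNAs in the ovary. Its mean was 28283 in the ovary, rank 22 among all genes by reads, and its VG libraries were at 822, 1117 and 836, a mean with rank 2401 by reads. It moved with the ovary markers, whose sum was 82290 in the ovary against 868 in the VG. The part of germ line RNA in this difference was not tested.

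The eIF4E-binding protein 1 (Nasvi2EG002633), which blocks the meeting of eIF4E and eIF4G, had means of 3526 in the ovary against 14887 in the VG. This 4.22-fold difference (2.08) kept its direction with totals without venom protein encoding genes (0.80) and turned with totals over all genes (−0.29). The 2 eIF4E binders thus stood at the opposite ends of the well-read factors on the DESeq scale. Kinases of eIF2-alpha stop general initiation under stress, each sensing another signal. Kinase 1 (Nasvi2EG003819), sensitive to haem in mammals, had 78.2, 118 and 112 in the VG libraries and an ovary mean of 472 (−2.20). Kinase 4 (Nasvi2EG032626), the sensor of amino acid lack, had 458, 406 and 505 against 794 (−0.80). Kinase 3 (Nasvi2EG005280), the kinase of the endoplasmic reticulum that senses unfolded proteins, had means of 1152 and 1794 (0.64), and was the only one of the 3 with the higher VG mean on the DESeq scale, though not with totals. The EF-Tu GTP-binding domain protein 1 (Nasvi2EG009976), which in yeast and mammals helps to mature the large subunit, had 301, 511 and 369 in the VG libraries against 1086 (−1.46).

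The keywords also caught 6 genes whose elongation factors act on RNA polymerase II. Of the negative elongation factor (NELF) subunits, which hold the polymerase near the start of a gene, NELF-A (Nasvi2EG005663) had means of 1422 in the ovary against 4049 in the VG (1.51, and 0.23 and −0.86 with totals without and with the venom protein encoding genes). NELF-B and NELF-D were at −0.34 and −0.24, the latter above the median (−0.27) of genes whose means reached 10 in both tissues. NELF-E (Nasvi2EG018999) had 143, 131 and 166 in the ovary libraries and 78.2, 68.8 and 101 in the VG libraries, with no overlap (−0.83, exact two-sided permutation test, p = 0.1, the smallest that 3 against 3 allows). The ratios of the 4 NELF subunits spanned 2.34 on the log2 scale. The 2 models of ELL, which speeds the polymerase, were at 0.71 and 0.07 on the DESeq scale, and both were lower in the VG with totals.

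Over the 26 factors with VG values per library, all 3 VG libraries lay at least 2-fold below the ovary mean in 8 and at least 2-fold above in 0. For 24 of the 26, with an ovary mean of at least 100 and a VG mean of at least 10, the former count was 7, against the same 41.0% of genes over these limits. These factors are those of low VG means, so the well-read cytosolic factors are not among them. Most of these 26 factors shared a library pattern inside the VG. Library b was the highest of the 3 in 19 of the 26 and the lowest in 6. It was the highest in 17 of the 22 with a VG mean of 100 to 1000, against 40.5% of the 4697 genes in that range. It was highest in 9 of the 10 cytosolic initiation and elongation genes and in 6 of the 8 bacterial-type genes, and lowest in 3 of the 4 transcription elongation genes. The median of the 26 factors, not held to that range, lay 0.19 above the VG mean in library b on the log2 scale. The median of the 4697 genes was −0.04. The median coefficient of variation over the 3 VG libraries was 20.1% in these 22 factors, with eIF4A-III lowest (5.71%) and eIF4E highest, and 20.2% over the 4697 genes.

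The rest of the translation machinery was set beside the factors from the same annotation. The cytosolic ribosomal proteins, 77 of 82 models with a read, had a median log2 ratio of 1.83. On the DESeq scale 75 were at least 2-fold higher in the VG and 0 lower, beside 35.9% and 21.3% of all genes with a read. With totals without venom protein encoding genes 72 of the 77 remained higher in the VG, beside 6524 of the 19854 genes with a read. With totals over all genes 8 did, beside 3803 of the 19854. The median of these ribosomal proteins exceeded that of the cytosolic factors by 1.45 on every scale, and 75 of the 77 lay above the median of the cytosolic factors. The mitochondrial ribosomal proteins, 70 of 74 with a read, had a median of −0.56, with 1 at least 2-fold higher and 17 lower, the latter near the shares of 21.3% and 28.5% over genes at large. The cytosolic set thus exceeded the mitochondrial set by 2.39 for ribosomal proteins, and the bacterial-type set by 1.82 for factors.

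The aminoacyl-tRNA synthetases, which charge the tRNAs that EF1-alpha and EF-Tu deliver, showed this order as well. Those annotated as mitochondrial, 9 with a read, had a median of −1.25, with 5 at least 2-fold lower in the VG and 0 higher on the DESeq scale, beside 21.3% lower and 35.9% higher over all genes with a read. The 27 others had a median of −0.05, with 2 at least 2-fold higher and 7 lower on the DESeq scale, the latter near the share over all genes, and 26 of the 27 were lower with totals without venom protein encoding genes. Of the proteins that bind the poly-A tail and contact eIF4G, the polyadenylate-binding protein 1 (Nasvi2EG013335) had means of 30506 in the ovary against 116831 in the VG, a log2 ratio of 1.94 that turns with totals over all genes. The polyadenylate-binding protein 2 (Nasvi2EG001103), known in mammals from the nucleus, had 664 and 288 (−1.21). In each of the 3 sets the mitochondrial or bacterial-type list lay below −0.27, the median of genes whose means reached 10 in both tissues. The other list of each set lay above it. The median over all genes with a read was 0.03, and against that value the synthetases not annotated as mitochondrial (−0.05) lay below.

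**Figure D4:**
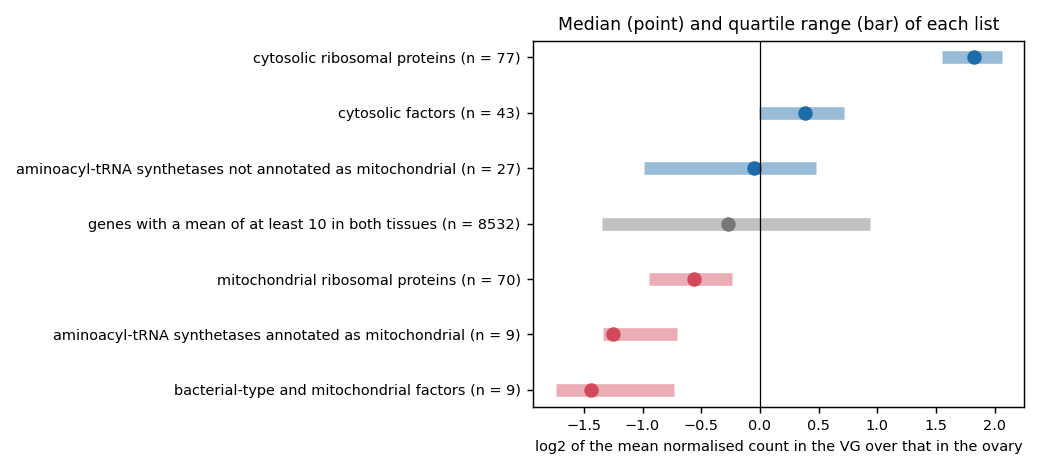
Median (point) and quartile range (bar) of the log2 ratio of VG mean to ovary mean, on the DESeq scale, for lists of the translation machinery and for all genes whose means reached 10 in both tissues (grey). Blue marks the cytosolic ribosomal proteins, the cytosolic factors and the synthetases not annotated as mitochondrial. Red marks the mitochondrial ribosomal proteins, the synthetases annotated as mitochondrial and the bacterial-type factors, most of which were grouped by name alone. The cytosolic ribosomal proteins stand at 1.83 (0.55 with totals without venom protein encoding genes), the cytosolic factors at 0.38 and the bacterial-type factors at −1.44, with the cytosolic factors lower in the VG on totals.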

How the data were processed

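RNA of 3 ovary and 3 VG replicates was sequenced as paired-end reads. Trimmed reads were mapped by the authors with Tophat2, counted per gene on exons with strand (HTSeq-count) and normalised with DESeq. The deposited values are a signal, the authors' mean of normalised counts per tissue. The deposited fold changes, p-values and adjusted p-values are the authors' own comparison and were not used. Tissue means were summed over genes for totals (10662081 in the ovary and 55159269 in the VG). Reads per library were recovered where exactly 1 combination of whole reads gave the mean, which held for all ovary means up to 100, for 61.2% from 100 to 150, and for 99.5% of VG means from 500 to 1000 (all below). Recovery was tested on simulated data. The implied size factors were 2.58, 2.47 and 2.30 for ovary libraries and 0.525, 0.450 and 0.287 for VG libraries, so VG values rest on fewer reads. As the table holds tissue means, the test for counts per library that had been planned could not be run. Genes given with values were those with a mean of at least 1000 in either tissue, past 2-fold, or under 100 in both, and others where reads per library were recovered. Members and lists were chosen with earlier results of these data known. None of the 68 IDs matched the reference gene table (0 matches), so no position or sequence is given. The tools were Python 3.11.15 with pandas 2.3.3, scipy 1.17.1, numpy 2.4.6 and, for plots, matplotlib 3.10.9.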

Additional observations from a re-analysis of the deposited data

How the results depend on the processing

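The scale moved the counts most. With totals without venom protein encoding genes 38 factors were past 2-fold, 1 higher and 37 lower in the VG, with a median of −1.14. With totals over all genes 61 were past 2-fold, 0 higher and 61 lower, with a median of −2.23. Of the 19854 genes with a read, 13330 were lower in the VG with totals without venom protein encoding genes, and 3803 were higher with totals over all genes. Centred on the median of the genes whose means reached 10 in both tissues, 12 were at least 2-fold higher and the median was 0.41. No share over all genes was taken for that count. A 4-fold threshold left 7 (2 higher, 5 lower) and a 1.5-fold threshold gave 38 (20 higher, 18 lower). Of the 37 factors higher in the VG, 3 stayed higher with totals without venom protein encoding genes and 1 with totals over all genes. The latter was the second EF1-alpha model, with means of 3.12 in the ovary against 20.1 in the VG. Among the factors past 2-fold, those that turned with both were eIF3 subunit I (−0.26 and −1.35), eIF5A (−0.084 and −1.17) and EF1-beta' (−0.23 and −1.32), and with totals over all genes alone eIF4E-binding protein 1 (−0.29) and NELF-A (−0.86). These shifts follow from the construction of the scales, which move all genes alike. Leaving out each recovered library in turn gave 87 values for 26 factors, with a median shift of 0.10 and a largest shift of 0.83 (the second EF1-alpha model without VG library b). The sign of the ratio changed in 7 of the values. Of the 16 factors past 2-fold, 10 had recovered library values, and only the second EF1-alpha model among these was higher in the VG. None of the 10 (0 of 10) came within 2-fold, and 1 other factor passed it, EF-Tu (Nasvi2EG009613) without VG library b. The rest of the 16 could not be checked in this way. No paired analysis was possible because the columns carry no replicate numbers. A count test with DESeq2 or edgeR was not run, as counts per library are known only for low means, nor was the list with added helicases, since no gene model matched it. Depth limits the VG most, where 1 read adds 0.635, 0.740 or 1.16 to a mean.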
